A study of Homo sapiens with 3 samples.

Results

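The cells described here are those of the resistant monoculture, compared with each other by cell cycle phase across all genes. Of 19237 annotated cells in 3 libraries, 7557 belonged to the resistant monoculture, and each of them carried a phase. The annotation placed 3781 cells in G1, 2162 in S and 1614 in G2M. Members were chosen by 2 columns of the annotation, the population and the phase. The authors called the phase with Seurat from the RNA of the same cells, so the genes on the 2 lists behind that call are given as a description and not as a result.

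CAMA-1 cells come from a long-used breast cancer line that is positive for the estrogen receptor. The resistant lineage was derived from it by long culture with ribociclib, an inhibitor of the kinases CDK4 and CDK6, and expressed the red fluorescent protein mCherry, while the sensitive lineage expressed the yellow fluorescent protein Venus. Spheroids were started from 2000 cells that were all resistant, all sensitive or 50% of each, received 1 µM ribociclib with DMSO as named in the treatment label, and were harvested after 11 days, frozen, thawed and made into 1 single-cell 3' library per composition. All cells compared here therefore shared 1 derived line, 1 dose, 1 harvest and 1 library. There was no untreated library of these cells and no replicate, so no test was run, no p-value is given, and the intervals below cover counting error only.

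A cell that enters the cycle activates CDK4 and CDK6 through D-type cyclins and CDK2 through E-type cyclins. These kinases phosphorylate RB1 and release E2F factors, which switch on genes of DNA replication. After replication, A-type and B-type cyclins with CDK1, together with the factors MYBL2 and FOXM1, raise the genes of chromosome condensation, spindle assembly and cell division. Many promoters of that later group hold a CCAAT box and a cell cycle homology region (CHR), and many promoters of the earlier group hold an E2F site.

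The resistant monoculture library held 11502 barcodes and 359599734 UMIs, where a UMI is a tag that counts each captured RNA molecule once. It shared 60 barcodes with the coculture library, 17 of them annotated as cells in both, and 34 with the sensitive monoculture library, 7 of them annotated in both. The study's methods name both transgenes in the cell selection, so the transgenes are no independent check of the label. In the deposited annotation, 2 or more mCherry UMIs were seen in 1494 of 3781 G1, 1047 of 2162 S and 905 of 1614 G2M cells. The transgene mVenus had 0 UMIs in all 3 phases, which allows at most 0.0233 CPM (counts scaled to a common total) in G1, 0.0365 in S and 0.0501 in G2M, and mCherry was seen in 67.7% of G1, 76.4% of S and 80.4% of G2M cells, at 46.7, 52.2 and 71.8 CPM. The luminal markers KRT8, KRT18, KRT19, GATA3, FOXA1, EPCAM and ESR1 were present in every phase. The 11 markers of leukocytes, fibroblasts, endothelium and basal cells summed to 4.36 CPM in G1, 3.18 in S and 4.14 in G2M, and PTPRC, DCN and KRT5 were at 0 throughout.

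Phases lay next to each other rather than apart. The deposited phase of all 7557 cells followed from 2 scores, with G1 where neither was above 0 and otherwise the phase of the larger score. In 2278 cells, 30.1%, the larger score lay within 0.05 of 0, and among G1 cells this held for 41.3%. Both scores were above 0 in 67.2% of S cells and 61.8% of G2M cells. The authors' clusters tracked the phase in part, since cluster 0 held 69.1% of G1 cells, cluster 1 held 57.3% of S cells and cluster 2 held 60.5% of G2M cells. The plot of the scores shows the 3 phases meeting at the origin.

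**Figure D1:**
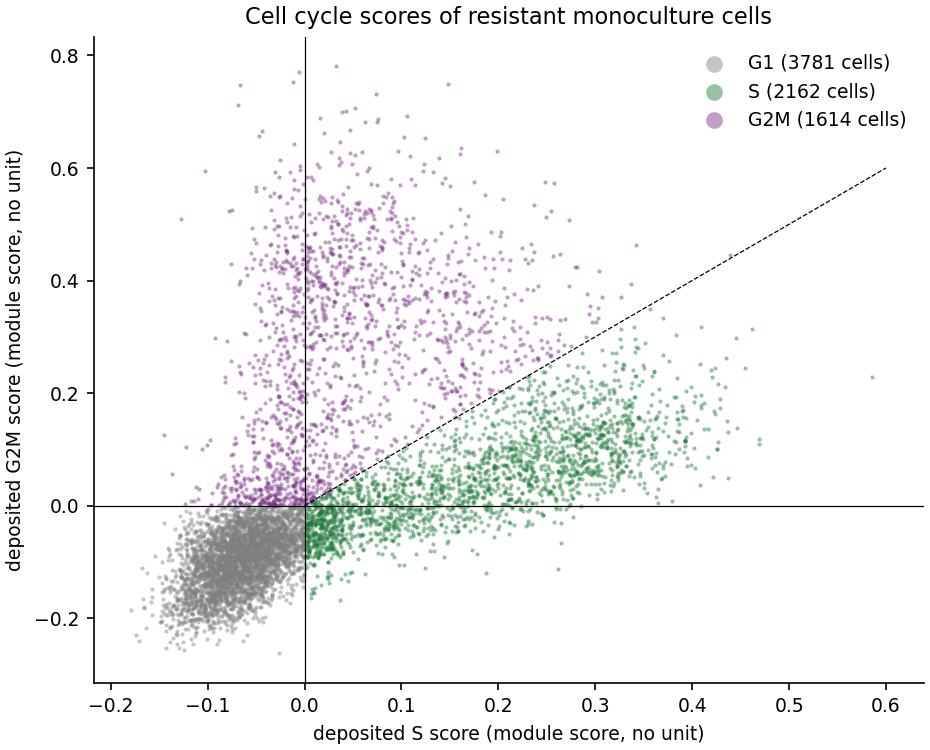
Deposited S score (x axis) and G2M score (y axis), module scores without a unit, of each of the 7557 resistant monoculture cells, coloured by deposited phase, with solid lines at 0 and a dashed line where both scores are equal. The 3781 G1 cells fill the lower left and pass without a gap into the S cells on the right and the G2M cells above.

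Depth and mitochondrial share moved with the phase. The median cell had 33368 UMIs and 4747 genes in G1, 38660 UMIs and 5202 genes in S, and 36319 UMIs and 5176 genes in G2M. The median share of mitochondrial UMIs was 16.7% in G1, 14.5% in S and 14.3% in G2M. The study's methods remove doublets, and scores recomputed here with scrublet still lay above 0.25 in 53 G1 cells (1.40%), 107 S cells (4.95%) and 93 G2M cells (5.76%). Their part in the gene ratios below was not tested beyond recomputing the ratios without them. Ratios were also recomputed with other cells left out, with cells thinned and with other scalings. Without the cells above 0.25, 481 of 482 genes higher by 1.5-fold in S over G1 stayed so, and 51 of 51 lower. In G2M over G1 these numbers were 583 of 590 higher and 83 of 85 lower. More genes were lost in cells under 15% mitochondrial UMIs. There, 395 of 482 higher and 34 of 51 lower in S over G1 stayed so, and 486 of 590 higher and 65 of 85 lower in G2M over G1.

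The UMIs of all cells in a phase were added up, 128692897 in G1, 82302040 in S and 59896610 in G2M, and expressed as CPM, which gives a share of a phase's RNA and not an amount per cell. Ratios are log2 values of CPM + 1, over 8472 genes whose 3 phases averaged 5 CPM or more, and a gene is called higher or lower at 1.5-fold. In S over G1, 482 genes were higher, 5.69% of those tested, and 51 were lower, 0.602%. In G2M over G1, 590 genes were higher (6.96%) and 85 lower (1.00%). In G2M over S, 145 genes were higher (1.71%) and 56 lower (0.661%). Leaving out the genes on the Seurat lists, 398 of 8376 genes were higher and 51 lower in S over G1, 505 higher and 85 lower in G2M over G1, and 97 higher and 30 lower in G2M over S. The median gene stood at 0.03 in S over G1 and 0.10 in G2M over G1. Per cell, without scaling to the total, the same medians were 0.19 and 0.22, since the mean cell held 34037 UMIs in G1, 38068 in S and 37111 in G2M.

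**Figure D2:**
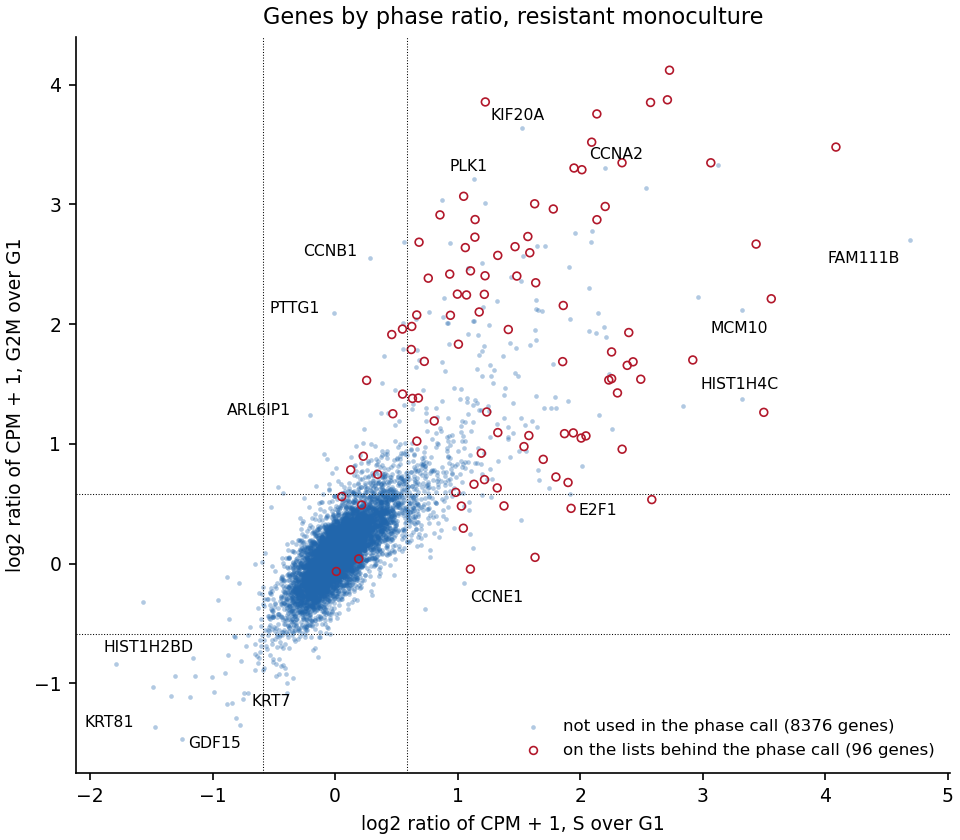
Log2 ratio of CPM + 1 in S over G1 (x axis) and in G2M over G1 (y axis) for 8472 genes, with dotted lines at 1.5-fold. The 96 genes on the lists behind the phase call (red circles) lie mostly in the upper right, among genes outside those lists (blue) such as FAM111B at 4.70 and 2.70 and KIF20A at 1.52 and 3.64, while KRT81, GDF15 and HIST1H2BD lie at the lower left.

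The genes used for the call had the ratios that the call implies. Of the 42 S genes with enough counts, 40 were higher in S over G1, with a median log2 ratio of 1.89, and of the 54 G2M genes 52 were higher in G2M over G1, with a median of 2.39. RRM2, a subunit of the enzyme that makes deoxyribonucleotides, had 2.60 CPM in G1, 60.1 in S and 39.1 in G2M. HMGB2, a chromatin protein, had 11.6, 82.4 and 218 CPM, and MKI67, the proliferation marker Ki-67, had 10.3, 72.9 and 164 CPM. When cells were called from one part of each list and the ratio was read on the other part, the medians were 1.78 for 39 S genes and 2.41 for 53 G2M genes. The same barcodes served both parts, so this check is not an independent one.

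A group of 26 genes outside the call lists was higher in S than in both G1 and G2M, replication genes among them. FAM111B, a protease gene, had 2.16 CPM in G1 (exact Poisson interval 1.91 to 2.43), 80.9 in S (79.0 to 82.9) and 19.6 in G2M (18.5 to 20.7), a log2 ratio of 4.70 in S over G1. At least 1 FAM111B UMI was seen in 6.72% of G1, 74.1% of S and 34.7% of G2M cells, at median depths of 33368, 38660 and 36319 UMIs. MCM10, which helps activate the replicative helicase, had 3.27 CPM in G1, 41.6 in S and 17.5 in G2M. CDT1, which loads that helicase onto DNA, had 13.2, 67.4 and 30.1 CPM, and MCM3, one of its subunits, had 59.2, 201 and 92.4 CPM. TK1, the thymidine kinase of the salvage pathway, had 19.9, 97.5 and 61.8 CPM. Each of these genes was highest in S and kept an intermediate level in G2M. In G2M over G1, MCM3 stayed past 1.5-fold in 8 of 15 alternatives.

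E2F1 and cyclin E1 belonged to the same group. E2F1, the transcription factor that RB1 holds in check, had 19.6 CPM in G1, 76.7 in S and 29.9 in G2M. CCNE1, cyclin E1, had 12.1 CPM in G1, 26.1 in S and 10.7 in G2M, so its G1 and G2M levels were near each other. CDK2, its kinase partner, had 4.00, 13.1 and 8.61 CPM, and CDK4, the target of ribociclib, had 88.6, 139 and 122 CPM. CCND1, cyclin D1, was level across the phases with 1668 CPM in G1, 1744 in S and 1622 in G2M. RB1 stood at 14, 16.6 and 18.4 CPM. CDK6 had 10 UMIs in G1 and 3 each in S and G2M, too few to compare. Among the inhibitors, CDKN1A (p21) had 10.7, 7.23 and 8.53 CPM and CDKN1B (p27) 16.1, 16.7 and 19.8 CPM, with no ratio at 1.5-fold. Of 18 counted G1 to S regulators, 9 were higher in S over G1 and 5 in G2M over G1, against 5.69% and 6.96% of all genes, and none was lower. CDK4 stayed past 1.5-fold in 13 of 15 alternatives, with a lowest log2 ratio of 0.54 in cells under 15% mitochondrial UMIs. Of 6 counted genes of CDK inhibition and quiescence none passed in S, and CDKN2A and CDKN2D were higher in G2M over G1, with 25.3, 31.9 and 38.8 CPM and 14.7, 21.1 and 23.0 CPM. CDKN2A stayed past 1.5-fold in 11 of 15 alternatives (lowest 0.47) and CDKN2D in 12 (lowest 0.42).

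Genes of replication, repair and nucleotide supply were counted in each phase against G1, where 5.69% of all genes were higher in S and 6.96% in G2M. Of 33 counted genes of replication licensing and the fork, 25 were higher in S over G1 with a median log2 ratio of 1.02, and 22 in G2M over G1 with a median of 0.71. Of 23 genes of homologous recombination and Fanconi repair, 18 were higher in S (median 0.95) and 12 in G2M (median 0.75). Of 20 genes of nucleotide supply, 7 were higher in S (median 0.54) and 9 in G2M (median 0.53). None of these genes was lower in either phase. PCLAF, a partner of the sliding clamp PCNA, had 44.7 CPM in G1, 191 in S and 225 in G2M, and MND1, a recombination factor, had 6.64, 32.8 and 31.7 CPM. Both genes were in a group of 228 genes that were higher in both phases than in G1 but differed by less than 1.5-fold between S and G2M.

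Histone genes went in opposite directions. The 3' chemistry captures RNA through its poly(A) tail, which most messages of replication-dependent histone genes lack, so these values describe the captured part. Of 59 such genes on the list 28 were found and 11 had enough counts. HIST1H4C, an H4 gene with near-identical copies elsewhere in the genome, had 98.4 CPM in G1 (96.7 to 100.1), 993 in S (987 to 1000.2) and 256 in G2M (252 to 260.5). HIST1H1B had 1.27, 15.3 and 4.66 CPM and HIST2H2AC 7.87, 34.8 and 14.6 CPM. These genes and HIST1H1E were the 4 that were higher in S. In the other direction, HIST1H2BD had 35.9 CPM in G1 (34.8 to 36.9), 9.65 in S (8.99 to 10.3) and 19.6 in G2M (18.5 to 20.8), and HIST1H2AC had 94.6, 31.2 and 75.5 CPM. With HIST1H2BC, HIST1H2BK, HIST1H2BN and HIST1H4H these made 6 genes that were lower in S over G1, against 5.69% of all genes higher and 0.602% lower. In G2M over G1, 3 of the 11 were higher and 6 lower, with a median of -0.63, against 6.96% and 1.00% of all genes. Of the higher ones, HIST1H1B stayed past 1.5-fold in 14 of 15 alternatives (lowest 0.38) and HIST2H2AC in 13 (lowest 0.46). HIST1H1C, a linker histone gene, had 142 CPM in G1, 103 in S and 74.4 in G2M and was lower in G2M only. Among replacement histones, which are made outside S phase too, H2AFZ had 946, 1684 and 2209 CPM and H2AFX 15, 32.8 and 40.8 CPM. Of 9 replacement histone genes, 3 were higher and 1 was lower in S over G1, and 4 were higher and 1 was lower in G2M over G1, where the lower gene is HIST1H2BK, which stands on both lists, beside the same shares of all genes.

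Mitotic genes were among those highest in G2M. A group of 79 genes outside the call lists was higher in G2M than in both G1 and S. CCNB1, the cyclin B1 gene, had 69.6 CPM in G1 (68.2 to 71.1), 85.2 in S (83.2 to 87.2) and 413 in G2M (408 to 419), so that S lay close to G1. PTTG1, the securin that delays separation of sister chromatids until anaphase, had 145, 144 and 623 CPM. The G1 and S intervals of PTTG1 overlapped at 143 to 147 and 142 to 147, but it was seen in 78.6% of G1 and 94.4% of S cells. Its log2 ratio in S over G1 ran from -0.39 in cells under 15% mitochondrial UMIs to 0.37 as a mean over log-normalized cells. PLK1, a kinase of mitotic entry, had 9.89, 22.9 and 100.0 CPM, and KIF20A, a kinesin of the central spindle, had 1.73, 6.83 and 32.9 CPM. CCNA2, cyclin A2, had 4.13 CPM in G1 (3.78 to 4.49), 22.6 in S (21.6 to 23.7) and 49.7 in G2M (48.0 to 51.6). SPC25, an outer kinetochore protein, had 6.26, 41.2 and 62.9 CPM. The group thus held genes whose S level lay near G1 and genes whose S level lay well above it.

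Most other named members of the group had their S level between those of G1 and G2M. NCAPG, a condensin subunit, had 6.44, 30.8 and 50.1 CPM in G1, S and G2M. BUB1B, a kinase of the spindle checkpoint, had 8.30, 29.4 and 57.6 CPM, and PRC1, which bundles microtubules in cytokinesis, had 15.3, 50.2 and 101 CPM. KIFC1, a minus-end kinesin, had 7.30, 34.4 and 52.5 CPM, and CEP55, a protein of abscission, had 6.30, 20.1 and 42.3 CPM. All of these were above G1 already in S. UBE2S, which works with the anaphase-promoting complex and has processed pseudogenes that can share its reads, had 278, 441 and 1150 CPM, and KNSTRN, a kinetochore protein, had 18.6, 27.8 and 77.8 CPM. PHF19, a Polycomb-associated protein, had 6.23, 15.6 and 40.2 CPM. ARL6IP1, a protein of the endoplasmic reticulum, had 104, 90.2 and 246 CPM and so was lowest in S. In S over G1 the call of KIF20A was lost at a pseudocount of 10 CPM (0.52), and UBE2S stayed past 1.5-fold in 13 of 15 alternatives (lowest 0.48).

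In each mitotic list most counted genes were higher in G2M over G1, against 6.96% of all genes, and 5.69% of all genes were higher in S over G1. Of 23 genes of the spindle, motors and cytokinesis outside the call lists, 22 were higher in G2M over G1 with a median log2 ratio of 2.01, and 18 in S over G1 with a median of 1.09. Of 33 kinetochore and centromere genes, 24 were higher in G2M (median 1.09) and 21 in S (median 0.82). Of 27 mitotic cyclins, kinases and genes of the anaphase-promoting complex, 19 were higher in G2M (median 1.14) and 15 in S (median 0.67). Of 31 genes of condensin, cohesin and chromosome structure, 22 were higher in G2M (median 1.04) and 17 in S (median 0.73). The factors that drive this program were higher in both phases: MYBL2 had 34.1, 108 and 127 CPM and FOXM1 5.10, 18.0 and 25.6 CPM. No gene of the 4 lists was lower in either phase.

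**Figure D3:**
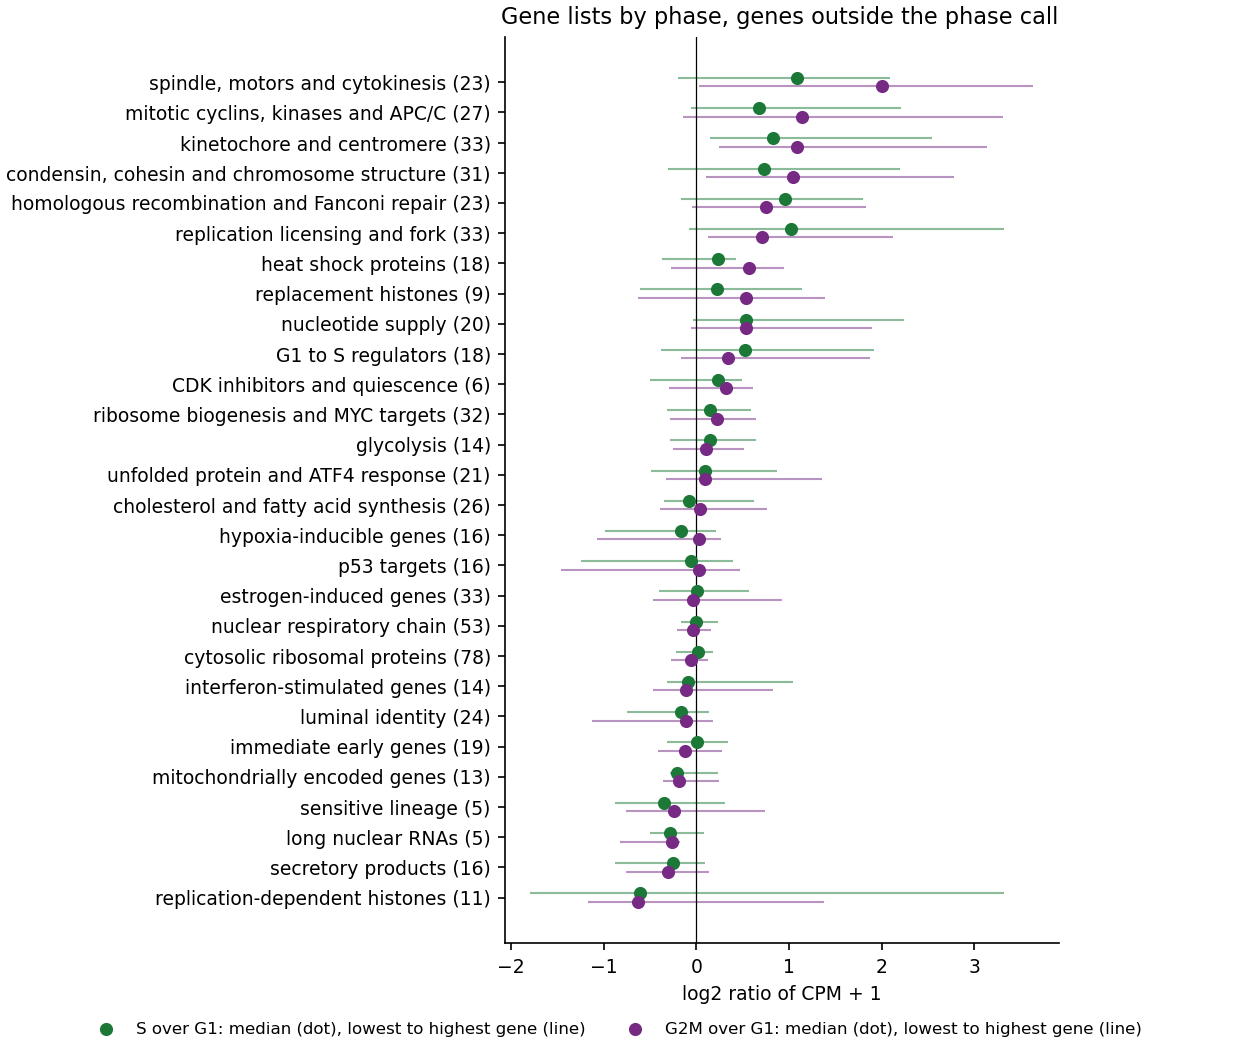
Log2 ratio of CPM + 1 over the genes of each list that were not used in the phase call (number of genes in brackets), S over G1 in green and G2M over G1 in purple, with the median as a dot and the lowest to highest gene as a line. The spindle list has the highest G2M median at 2.01, the replication list has a higher median in S (1.02) than in G2M (0.71), and the replication-dependent histones span the widest range, from -1.79 to 3.32 in S over G1.

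Promoters of these genes were read for short motifs, since such motifs are background knowledge for both groups. RefSeq promoter sequences (GRCh38.p14, 250 bases before to 50 after the start site) were matched for 7172 of the 8472 tested genes, and CCAAT, the CHR letters TTTGAA and TTCGAA, and the E2F letters TTTGGCGC, TTTCCCGC and TTTGCGCG were searched on both strands. Each gene counted once, and matches to different motifs were allowed to overlap. Of the 66 matched promoters in the G2M group, 50.0% held a CHR match and 71.2% a CCAAT match, against 11.0% and 38.2% of all tested genes. Of the 22 matched promoters in the S group, 27.3% held an E2F match, 68.2% a CCAAT match and 9.09% a CHR match, against 4.77% of all tested genes for E2F. Among 202 promoters of the group higher in both phases, the shares for E2F (14.9%) and CHR (20.3%) lay between those of the S and G2M groups, while that for CCAAT (39.1%) lay below both and near that of all tested genes. Of the 24 matched promoters of genes highest in G1, none held an E2F match, 20.8% held a CHR match and 50.0% a CCAAT match. The shares are descriptions of letters in a window, not of bound factors.

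Promoters of named genes with large ratios are shown to make these matches visible. They are given from 250 bases before to 20 bases after the start site, 5′ to 3′ on the gene's strand, with matches to the motifs in capitals on whichever strand they were found. In the S group, MCM10 lies at chr10:13161308-13161577 on the plus strand with 2 CCAAT matches, HIST1H1B at chr6:27867569-27867838 on the minus strand with 2 CCAAT matches and 1 CHR match 177 bases before the start site, and CDT1 at chr16:88803539-88803808 on the plus strand with 1 E2F match and no CCAAT match. In the G2M group, KIF20A lies at chr5:138178862-138179131 on the plus strand, CCNA2 at chr4:121823864-121824133 on the minus strand, PLK1 at chr16:23678639-23678908 on the plus strand and SPC25 at chr2:168890411-168890680 on the minus strand. PLK1 and SPC25 carry a CHR match near the start site, 29 and 3 bases before it, downstream of a CCAAT match, while KIF20A and CCNA2 carry CCAAT matches and no exact CHR letters in this window.
MCM10: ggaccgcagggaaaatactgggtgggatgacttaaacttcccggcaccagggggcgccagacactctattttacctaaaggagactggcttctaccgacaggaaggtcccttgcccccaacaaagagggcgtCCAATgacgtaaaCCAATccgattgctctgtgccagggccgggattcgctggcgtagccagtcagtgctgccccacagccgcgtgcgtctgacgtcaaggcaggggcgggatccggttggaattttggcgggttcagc
HIST1H1B: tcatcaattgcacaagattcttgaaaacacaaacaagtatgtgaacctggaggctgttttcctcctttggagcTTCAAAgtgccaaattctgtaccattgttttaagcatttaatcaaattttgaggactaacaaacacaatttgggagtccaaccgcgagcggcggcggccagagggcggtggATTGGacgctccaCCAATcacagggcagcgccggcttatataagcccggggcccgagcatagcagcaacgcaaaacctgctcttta
CDT1: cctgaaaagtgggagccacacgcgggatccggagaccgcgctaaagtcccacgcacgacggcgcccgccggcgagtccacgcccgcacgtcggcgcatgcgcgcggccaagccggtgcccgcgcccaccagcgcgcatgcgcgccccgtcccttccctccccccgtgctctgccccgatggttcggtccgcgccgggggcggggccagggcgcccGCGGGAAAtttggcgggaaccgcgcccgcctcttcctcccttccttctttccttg
KIF20A: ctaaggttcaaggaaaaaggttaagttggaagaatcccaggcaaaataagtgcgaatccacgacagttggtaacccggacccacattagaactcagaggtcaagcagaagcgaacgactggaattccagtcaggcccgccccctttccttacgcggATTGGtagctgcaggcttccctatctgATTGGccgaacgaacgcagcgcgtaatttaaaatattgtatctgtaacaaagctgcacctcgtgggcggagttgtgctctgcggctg
CCNA2: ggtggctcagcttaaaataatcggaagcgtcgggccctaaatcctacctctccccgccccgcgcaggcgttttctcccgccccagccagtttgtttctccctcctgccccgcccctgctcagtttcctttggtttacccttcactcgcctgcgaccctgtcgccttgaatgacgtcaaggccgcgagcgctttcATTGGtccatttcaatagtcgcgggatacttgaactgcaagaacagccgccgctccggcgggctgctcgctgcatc
PLK1: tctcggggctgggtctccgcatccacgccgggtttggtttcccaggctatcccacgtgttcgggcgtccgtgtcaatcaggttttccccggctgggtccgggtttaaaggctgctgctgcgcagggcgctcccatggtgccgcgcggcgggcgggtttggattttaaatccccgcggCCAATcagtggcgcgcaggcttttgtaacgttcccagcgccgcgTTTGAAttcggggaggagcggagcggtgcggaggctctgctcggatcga
SPC25: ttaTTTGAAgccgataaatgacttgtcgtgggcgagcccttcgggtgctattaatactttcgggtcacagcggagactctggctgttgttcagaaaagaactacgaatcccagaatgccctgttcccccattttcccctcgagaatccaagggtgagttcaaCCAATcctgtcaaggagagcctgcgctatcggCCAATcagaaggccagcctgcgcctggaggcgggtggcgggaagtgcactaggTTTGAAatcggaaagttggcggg

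Part of the heat shock list was higher in G2M. Of 18 genes, 8 were higher in G2M over G1 with a median log2 ratio of 0.57, and none was higher in S, where the median was 0.23, against 6.96% and 5.69% of all genes. HSP90AA1, the inducible HSP90, had 1255 CPM in G1, 1632 in S and 2329 in G2M. HSPH1, a co-chaperone of HSP70, had 63.6, 83 and 123 CPM, and DNAJA1 had 191, 242 and 340 CPM. HSPB1, a small heat shock protein chosen after its values were seen, had 1563 CPM in G1, 1204 in S and 1462.5 in G2M. Of the 18 genes, 16 lay above 0 in G2M over G1, where the median of all genes was 0.10. The list median in G2M over G1 lay between 0.48 and 0.70 over the alternatives.

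RNA of translation and respiration differed little between phases. Of 78 cytosolic ribosomal protein genes none passed 1.5-fold, with medians of 0.01 in S over G1 and -0.06 in G2M over G1, the latter being 0.06 per cell. Of 53 nuclear genes of the respiratory chain none passed either, and the median in G2M over G1 was -0.04 (0.08 per cell). The 13 mitochondrially encoded genes had medians of -0.21 and -0.19, none at 1.5-fold, beside the lower mitochondrial share of S and G2M cells. Of 32 genes of ribosome biogenesis and MYC targets, NOP56 was higher in S and ODC1 in G2M, and the medians were 0.14 and 0.22. NOP56 lay just past 1.5-fold at 0.59 and stayed past it in 7 of 15 alternatives, and ODC1 in 11. Of 14 glycolysis genes, PFKP alone was higher, in S, with 19.4, 30.8 and 28.2 CPM, and it stayed past 1.5-fold in 13 of 15 alternatives (lowest 0.47). None of these lists held a share of higher genes well above the 5.69% and 6.96% of all genes. Of 5 counted long nuclear RNAs, NEAT1, a scaffold of paraspeckles, was lower in G2M, as were 1.00% of all genes, with 3100, 2185 and 1755 CPM, and MALAT1 had 47831, 42584 and 35015 CPM.

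A group of 36 genes was highest in G1, that is, lower in both S and G2M than in G1. KRT7, a keratin of simple epithelium, had 955 CPM in G1 (949 to 960), 568 in S (563 to 573) and 435 in G2M (430 to 440), and it was seen in over 99% of the cells of each phase. HSD17B1, which makes estradiol from estrone, had 52.1, 30.8 and 24.2 CPM, and BCAS1 had 31.3, 17.5 and 12.3 CPM. ANKRD37, a hypoxia-induced gene, had 39.6, 19.5 and 18.4 CPM. CLIC3, an intracellular chloride channel protein, had 638, 487 and 319 CPM and was lower in G2M alone. In each of these genes 10 cells held at most 9.0% of a phase's UMIs. In cells under 15% mitochondrial UMIs, HSD17B1 and BCAS1 in S over G1 stood at -0.47 and -0.57, short of 1.5-fold, as did HSD17B1 at -0.53 as a mean over log-normalized cells.

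Other genes highest in G1 rested on fewer cells. KRT81, which has close paralogs, had 112 CPM in G1, 39.7 in S and 42.9 in G2M, but it was seen in 27.7%, 25.3% and 25% of cells and 10 cells held 22.9%, 33.6% and 55.7% of its UMIs. GDF15, a stress-induced cytokine and p53 target, had 13.8, 5.22 and 4.36 CPM, seen in 9.15%, 8.0% and 6.82% of cells. MUCL1, a secreted mucin-like protein, had 384, 209 and 226 CPM, with 16.4%, 26% and 32.8% of its UMIs in 10 cells. S100A8 had 48.3, 23.6 and 24.5 CPM and S100P 90.7, 51.0 and 59.0 CPM. The share of cells with a UMI differed less between phases than the CPM for all of these. For MUCL1 the share was 79.6%, 80.2% and 77.0%, and for S100A8 35.9%, 31.5% and 29.5%. S100P was seen in 39.4% of G1, 42.4% of S and 41.6% of G2M cells, so its share was lowest in G1. In cells under 15% mitochondrial UMIs the ratios of MUCL1 shrank to -0.34 in S over G1 and -0.24 in G2M over G1, below 1.5-fold, and as a mean over log-normalized cells S100P stood at -0.33 and -0.22 and S100A8 at -0.56 and -0.58.

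Most luminal and secretory genes had ratios below 0, few of them past 1.5-fold. Of all genes, 0.602% were lower in S over G1 and 1.00% in G2M over G1. Of 24 genes of luminal identity, KRT7 was lower in S and KRT7 and KRT19 were lower in G2M, and the medians were -0.17 and -0.12 (0.01 per cell in G2M over G1). KRT19 in G2M over G1 stayed past 1.5-fold in 14 of 15 alternatives, with -0.53 per cell. Of the 24 genes, 4 lay above 0 in S over G1 and 4 in G2M over G1, and their summed level was 14278 CPM in G1, 11989 in S and 10832 in G2M. Of 16 secretory products, MUCL1 and S100P were lower in S and, with CLU, in G2M, and the medians were -0.26 and -0.31, with 2 and 1 genes above 0. CLU in G2M over G1 stayed past 1.5-fold in 12 of 15 alternatives (-0.47 in cells under 15% mitochondrial UMIs). Of 5 counted genes that mark the sensitive lineage, MUCL1 was lower in both phases and SCIN higher in G2M. Of 33 estrogen-induced genes none passed in S, and 3 were higher in G2M, ELOVL2, OLFM1 and SLC7A5, a share near the 6.96% of all genes, around medians of 0.01 and -0.04 (0.09 per cell in G2M over G1). SLC7A5 stayed past 1.5-fold in 11 of 15 alternatives, and ELOVL2 and OLFM1 in 14 each (lowest 0.44 and 0.55). The estrogen receptor gene ESR1 had 13.8, 14.3 and 14.7 CPM, its targets PGR 23.4, 21.5 and 22.0 CPM and GREB1 58.4, 56.2 and 56.5 CPM, and TFF3 had 552, 424 and 400 CPM. MGP, a secreted matrix protein, had 6825, 6348 and 5998 CPM. Of 16 p53 targets, 2 were lower in S, GDF15 and TP53INP1, and 2 in G2M, GDF15 and ZMAT3. Of 16 hypoxia-inducible genes, ANKRD37 and NDRG1 were lower in both phases. NDRG1 stayed past 1.5-fold in 11 of 15 alternatives in S and 12 in G2M, ZMAT3 in 11, TP53INP1 in 13 and SCIN in 10. Of 26 genes of cholesterol and fatty acid synthesis, EBP was higher in both, with 82.1, 127 and 140 CPM, and of 21 genes of the unfolded protein and ATF4 response PHGDH was, with 5.22, 10.4 and 14.9 CPM. These single genes are a share of each list below the 5.69% and 6.96% of all genes that were higher. EBP in S over G1 stayed past 1.5-fold in 11 of 15 alternatives and PHGDH in 13. None of the 19 immediate early genes passed 1.5-fold.

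Of 14 interferon-stimulated genes, 2 were higher in S and 1 in G2M, against 5.69% and 6.96% of all genes, and the medians were -0.09 and -0.11. OAS3 had 4.40, 10.1 and 8.60 CPM and stayed past 1.5-fold in 14 of 15 alternatives in each phase (lowest 0.48 in S and 0.37 in G2M). IFIT1 had 4.72 CPM in G1, 8.51 in S and 3.41 in G2M, but 1 S cell held 399 of the 700 UMIs and 10 cells held 83.3%. The share of cells with an IFIT1 UMI was 4.05% in G1, 4.07% in S and 3.53% in G2M. As a mean over log-normalized cells the S over G1 ratio of IFIT1 was -0.18, and it stayed past 1.5-fold in 11 of 15 alternatives.

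Within each phase the cells were ordered by score and cut into 3 parts of equal number. S and G2M cells were ordered by the G2M score and G1 cells by the larger score. Of the 26 genes highest in S, 25 had their highest CPM in the upper part of S, and of the 79 highest in G2M, 76 had it in the upper part of G2M. Of the 228 genes higher in both phases, 155 were highest in the upper part of S and 71 in the upper part of G2M. Of the 36 genes highest in G1, 35 were highest in the lower part of G1. FAM111B had 1.21, 1.77 and 3.45 CPM from the lower to the upper part of G1, 27.9, 84.6 and 126.5 CPM in S, and 7.79, 29.4 and 20.2 CPM in G2M. CCNE1 was highest in the middle part of S, with 21.3, 30.4 and 26.4 CPM there. CCNB1 had 84.7, 76.7 and 93.9 CPM in S and 187, 381 and 631 CPM in G2M. HIST1H2BD had the opposite order, with 52.7, 32.4 and 23.4 CPM in G1, 15.8, 8.88 and 4.68 in S, and 28.4, 19.2 and 12.7 in G2M. KRT7 had 1143, 938 and 793 CPM over the parts of G1 and 602, 398 and 331 over those of G2M. The median mitochondrial share was 18.3%, 16.7% and 15.4% over the parts of G1 and 15.4%, 14.5% and 12.9% over those of G2M, and its part in these orders was not tested. Over the parts of S the median S score rose as well, from 0.039 to 0.178 and 0.284, so the lower part of S lay near the score limit. The groups were chosen by phase, and the scores that set the phase also set the order in the same cells. The counts above were thus partly set by the selection, and the order is a description.

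**Figure D4:**
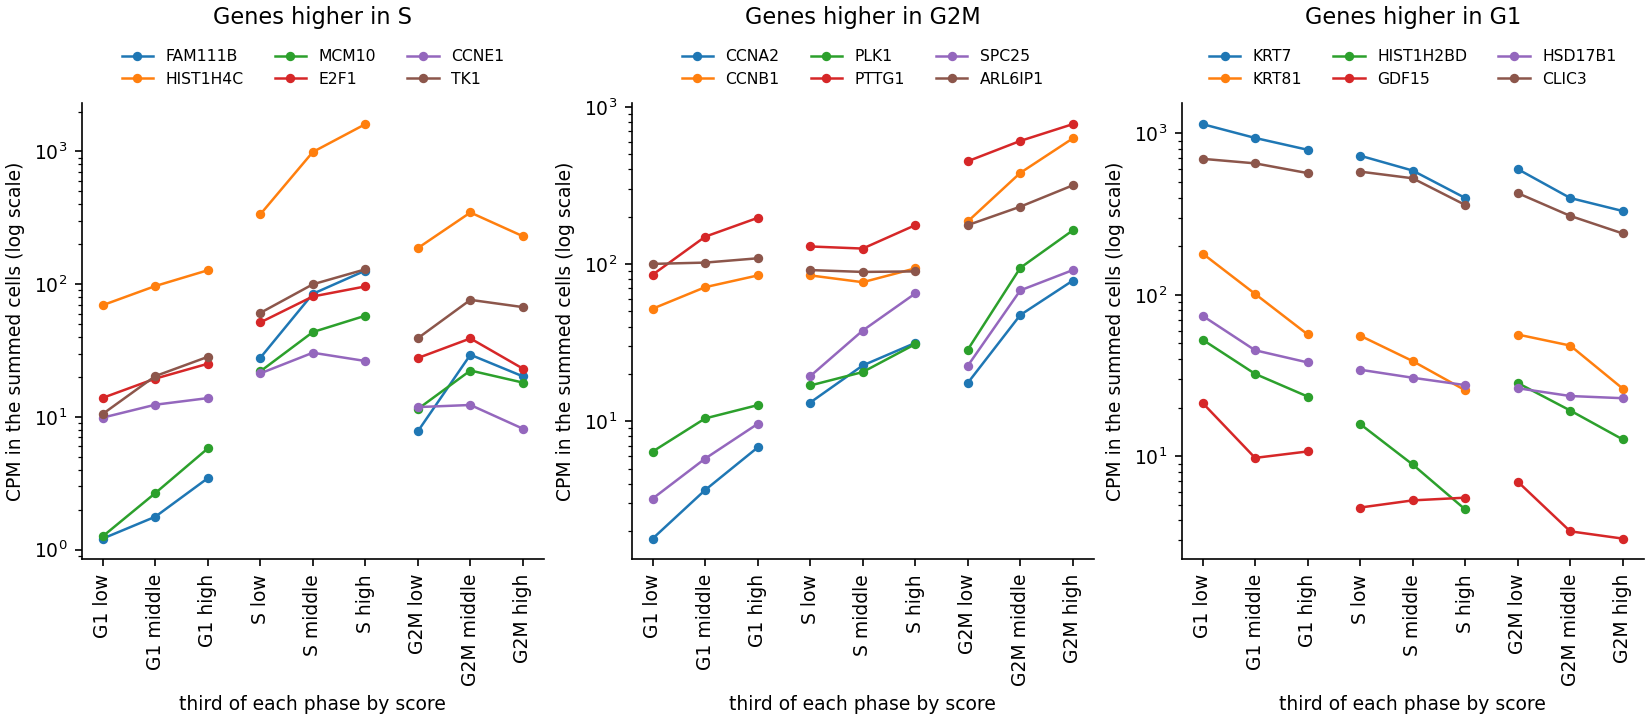
CPM on a log scale (y axis) of 18 genes outside the phase call lists over 9 sets of cells (x axis), the lower, middle and upper part of G1, S and G2M by score, with lines joining the parts of 1 phase. Genes higher in S reach their highest values in the middle or upper part of S, genes higher in G2M are highest in its upper part (CCNB1 at 631 CPM, against 187 in the lower part), and genes higher in G1 are lower in the upper than in the lower part of each phase, apart from GDF15 in S.

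The same phase ratios were read in the other 3 populations, which have 3125, 1627 and 1540 cells in G1, S and G2M for resistant coculture, 1138, 458 and 463 for sensitive coculture, and 2963, 176 and 190 for sensitive monoculture. Of the 26 genes highest in S, 25 were higher in S over G1 in each of them, the exception being IFIT1, which had log2 ratios of -1.06, -0.90 and -0.64. The median over the 26 genes was 1.61 in the resistant monoculture, 1.63 in resistant coculture, 1.72 in sensitive coculture and 1.99 in sensitive monoculture. Of the 79 genes highest in G2M, 74, 67 and 71 were higher in G2M over G1 in the other populations in that order, and the medians were 1.70 in the resistant monoculture and 1.64, 1.71 and 2.23 in the others. Of the 36 genes highest in G1, 33, 32 and 35 were lower in G2M over G1 and 27, 24 and 26 in S over G1. Of all genes tested in these populations, 5.35%, 5.95% and 7.36% were higher in S over G1, 6.38%, 6.46% and 10.0% were higher in G2M over G1, 0.710%, 1.23% and 4.75% were lower in S over G1, and 1.35%, 2.01% and 6.48% were lower in G2M over G1. Gene by gene, CCNA2 had a log2 ratio in G2M over G1 of 3.31 in the resistant monoculture, 3.39 in resistant coculture, 3.64 in sensitive coculture and 5.0 in sensitive monoculture, where its G1 level was 0.882 CPM. PTTG1 in S over G1 stood at -0.01, 0.26, 0.31 and 1.89, with G1 levels of 145, 109, 119 and 40.2 CPM. HSP90AA1 in G2M over G1 was 0.89, 0.84, 0.82 and 1.04. The groups were chosen in the resistant monoculture, which favours larger ratios there. With 1 library each, the differences between populations were not tested.

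**Figure D5:**
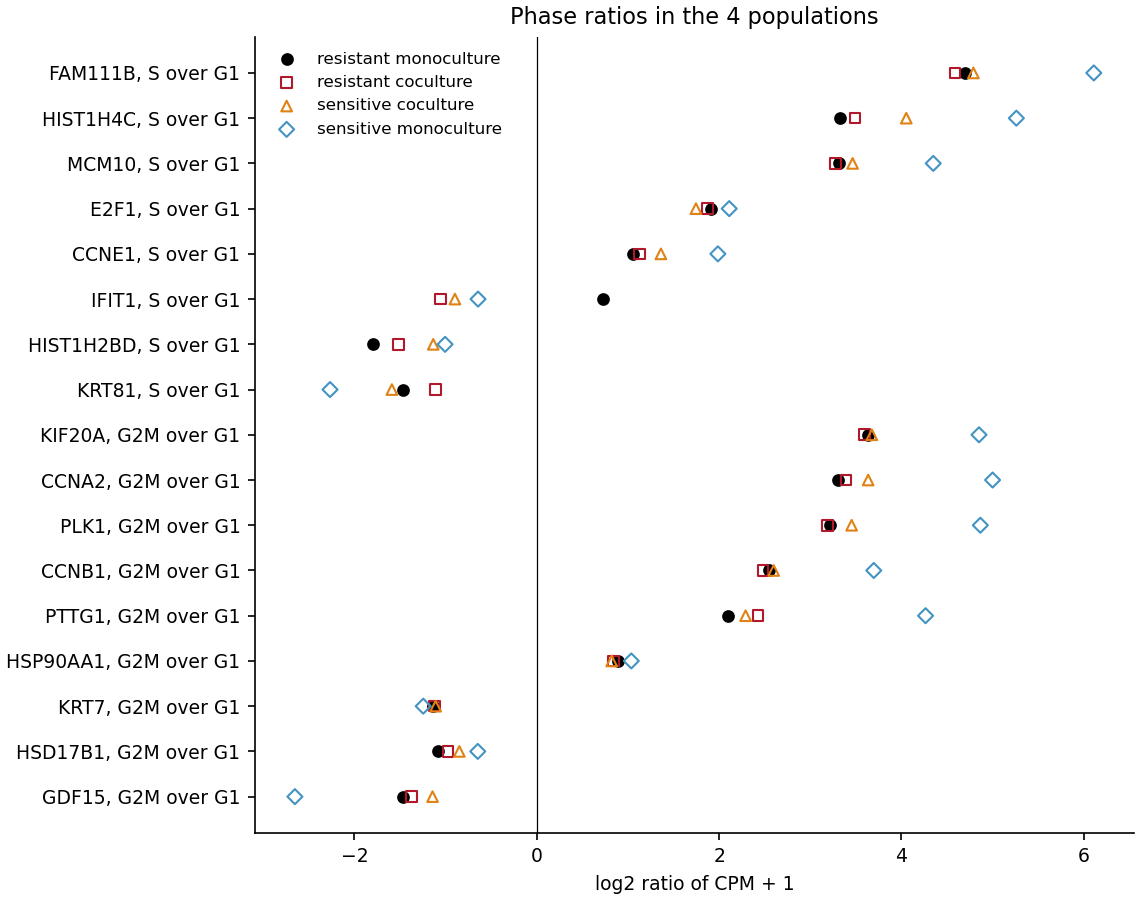
Log2 ratio of CPM + 1 (x axis) of 17 named genes in S over G1 or G2M over G1 (y axis) in the resistant monoculture (filled circles) and the other 3 populations (open symbols). The 4 populations share the direction of all ratios drawn apart from IFIT1, which is at 0.73 in the resistant monoculture and below 0 in the others. The sensitive monoculture lies farthest from 0 for KIF20A, CCNA2, PLK1, CCNB1 and PTTG1, all drawn in G2M over G1 only.

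Positions of the genes that carry these comparisons are given on GRCh37. FAM111B spans chr11:58874658-58894885, MCM10 chr10:13203558-13253110, CDT1 chr16:88870197-88875666, E2F1 chr20:32263283-32274191 and CCNE1 chr19:30302898-30315219. CCNB1 spans chr5:68462962-68474072, PTTG1 chr5:159848862-159855746, PLK1 chr16:23688977-23701688, KIF20A chr5:137514408-137523412 and CCNA2 chr4:122737599-122745038. HIST1H4C lies at chr6:26104161-26104565 and HIST1H2BD at chr6:26158350-26171577, both in the large histone cluster, and KRT7 at chr12:52626304-52645970 and KRT81 at chr12:52679697-52685318 lie in the type II keratin cluster. The 3' chemistry reads near the end of each transcript, so the counts are of whole genes and not of isoforms.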

How the data were processed

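Per the labels and the study's methods, the authors made 10X Genomics 3' v3 libraries, aligned and counted them with Cell Ranger 3.0.2 on GRCh37, and deposited unnormalized tables of UMI counts with 1 column per barcode. The authors kept cells under 30% mitochondrial UMIs with 3000 to 7000 genes and 2000 to 60000 UMIs, and their methods also remove scrublet doublets and cells under 2 transgene UMIs, although the deposited annotation holds cells without that many. The deposited annotation gives each kept cell's S and G2M score and phase from Seurat, its mitochondrial percent, cluster, transgene class and population. A further 8 columns were not used. UMIs without a gene symbol, 0.565% in this library, were left out, and UMI totals then differed from the deposited ones by at most 6 per cell.

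UMIs were summed per phase and scaled to CPM. Ratios are log2 of CPM + 1 over genes that averaged 5 CPM or more, called at 1.5-fold. CPM carry exact Poisson intervals at 95%, and a count of 0 a limit of 3 UMIs. Genes of either version of Seurat's lists (98 found) count as used in the call, since the version is not given in the sources used here. Named genes are those with the largest ratios outside these lists at a mean of at least 20 CPM, the 3 largest of each list, the 6 highest list genes and a fixed set of regulators. Members and lists were chosen with earlier results of these data known. Of the genes on 29 lists, 39 were not found by name. Phases were also called anew with 24 expression bins and up to 100 control genes per gene. Alternatives changed cells, calls, depth (5000 UMIs per cell), pseudocount, filter, fold and scaling. The calculation of ratios was checked on simulated counts with known changes, which is no test of these data. No cell was removed here in the main values. Doublets were scored again by scrublet in scanpy 1.11.5. Other tools were Python 3.11.15, numpy 2.4.6, scipy 1.17.1, R 4.3.3, Seurat 5.3.0 for its lists and edgeR 4.0.16 for TMM factors. Gene positions are from GENCODE 44 lifted to GRCh37.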

Additional observations from a re-analysis of the deposited data

Results flagged for a closer look

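IFIT1 had a log2 ratio of S over G1 of 0.73 in the resistant monoculture, while it was below 0 in the other 3 populations, at -1.06, -0.90 and -0.64. The opposite direction drew attention to it, and the difference was not tested. In the resistant monoculture 1 S cell held 399 of its 700 UMIs.

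Among 649 barcodes of this library that lay over 60000 UMIs or 7000 genes with a mitochondrial share under 30%, and so outside the annotated cells, 33.7% were called G2M when phases were called anew (exact binomial interval 30.1% to 37.5%). A further 33.0% were called S and 33.3% G1. The same calls placed 17.1% of the annotated cells in G2M, 27.3% in S and 55.6% in G1. Among 1109 barcodes with 3000 genes or fewer and a mitochondrial share under 30%, 26.7% were called G2M (24.1% to 29.4%). These barcodes were shallow, with a median of 3040 UMIs when called G1, 837 when called S and 1041 when called G2M. In annotated cells the medians by the same calls were 33433, 38867 and 37254. The interval covers counting error only, and the part of depth in these calls was not tested. No doublet score was computed for either set of barcodes, and neither set entered a comparison above.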

How the results depend on the processing

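Counts of genes past 1.5-fold depended on the fold, the pseudocount, the filter, the scaling, the depth and the cells near the score limits. In the order higher and lower in S over G1, G2M over G1 and G2M over S, a pseudocount of 10 CPM gave 251 and 18, 308 and 27, and 94 and 35 genes, a mean of at least 50 CPM gave 105 and 7, 165 and 13, and 39 and 12, and a 2-fold limit gave 212 and 11, 231 and 14, and 65 and 21. UMIs per cell gave 740 and 27 in S over G1 and 893 and 46 in G2M over G1. Genes lower in S over G1, G2M over G1 and G2M over S numbered 140, 168 and 95 without cells near the limits and 87, 137 and 99 in cells thinned to 5000 UMIs. Genes lower in S over G1 and G2M over G1 numbered 93 and 134 at a mean of at least 1 CPM and 80 and 144 with totals that left out mitochondrial and ribosomal genes. TMM factors gave 129 lower in G2M over G1, and phases called anew at 5000 UMIs gave 33 lower in S over G1. The causes were not tested. Phases called anew put 27.3% of cells in S and 17.1% in G2M, at 5000 UMIs 31.0% and 17.6%, and over all barcodes 25.2% and 18.2%, while barcodes under 30% mitochondrial UMIs had 19.4% in G2M. Cell by cell, the phase called anew was the deposited one in 93.2% of 7557 cells, and in 83.3% at 5000 UMIs. The median UMI ratio of G2M over G1 was 1.11 anew, 1.13 anew at 5000 UMIs and 1.07 without high doublet scores, and that of S over G1 was 1.24 over all barcodes. IFIT1 in S over G1 reversed to -0.18 as a mean of log-normalized cells. Of the named genes past 1.5-fold, 53 of 69 in S over G1 and 60 of 82 in G2M over G1 passed in each of 15 alternatives. With 1 library a group, no replicate could be left out. No paired analysis was possible because each composition has 1 library and no test was run.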
